A study of Homo sapiens with 6 samples.

Results

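This is an account of the γH2AX peaks in the interiors of chromosomes 7, 9, 11 and 12, away from the chromosome ends and the centromeres. A peak belonged to the set when its midpoint lay at least 5 Mb from the start of its chromosome and at least 5 Mb before the highest peak end found there in any list. Stretches beside the centromeres were left out, at 55 to 64 Mb on chromosome 7, 38 to 73 Mb on chromosome 9, 48 to 59 Mb on chromosome 11 and 31 to 39 Mb on chromosome 12, in genome build hg18. The choice used positions alone and no measured height or width. It took 1896 of the 12579 peaks in the series (15.1%). Of these, 720 came from the UNG knockout (KO) pemetrexed list, 112 from the wild-type (WT) pemetrexed list, 748 from the KO cisplatin list and 316 from the WT cisplatin list. Over all 16 limits of the rule, the member nearest to a limit was a KO cisplatin peak 1.22 kb inside it on chromosome 9, and the nearest peak left out was a KO cisplatin peak 11.9 kb outside it on chromosome 11.

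The study used chromatin immunoprecipitation followed by sequencing with an antibody to γH2AX in DLD1, an established human colorectal cancer line. The groups used here were UNG knockout cells (UNG-/-) with pemetrexed, wild-type cells (UNG+/+) with pemetrexed, UNG knockout cells with cisplatin, and wild-type cells with cisplatin, each with 1 library. Untreated cells of each genotype were also part of the series and were not analysed here. Neither the labels nor the deposited lists give a dose, a treatment time, or whether the knockout line is a single clone.

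γH2AX is the histone variant H2AX phosphorylated by the kinases ATM, ATR and DNA-PK, and it spreads along the chromatin on either side of a DNA double strand break. UNG is the glycosylase that cuts uracil out of DNA and so starts base excision repair. Pemetrexed is an antifolate that blocks thymidylate synthesis, which favours the building of uracil into DNA in place of thymine, whereas cisplatin crosslinks DNA bases. The gene for H2AX itself lies on the long arm of chromosome 11 and the gene for UNG on the long arm of chromosome 12.

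Each list gives the chromosome, start and end of its peaks, with no height, score or read count, so the depth behind a peak is unknown. With 1 library per group no difference between groups has a replicate check, and no p-value was computed. The 95% intervals below are exact, cover counting error only, and treat peaks as independent, which makes them too narrow where neighbouring peaks belong together. A library sequenced more deeply, or called against another control, can give more and wider peaks, and the part of either in the differences below was not tested. No peak is assigned to a gene here, because no gene annotation in build hg18 was at hand.

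Loss of UNG went with a longer list after both drugs, and more so after pemetrexed. After pemetrexed the interiors held 720 peaks in KO cells and 112 in WT cells, a ratio of 6.43 (95% interval 5.26 to 7.92). After cisplatin they held 748 in KO cells and 316 in WT cells, a ratio of 2.37 (2.07 to 2.71). Set against its cisplatin value, the pemetrexed ratio was larger by a factor of 2.71 (2.13 to 3.48). With peaks within 100 kb of each other counted as 1, the factor was 1.06 (0.794 to 1.41), an interval that includes 1.

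Read across the drugs, the KO cells had about as many peaks after pemetrexed as after cisplatin in these interiors, and the WT cells had fewer. The pemetrexed over cisplatin ratio was 0.963 in KO cells (95% interval 0.868 to 1.07) and 0.354 in WT cells (0.283 to 0.441). Both were lower than among all other peaks of the series. There the KO ratio was 1.19 (1.14 to 1.25) and the WT ratio 0.545 (0.499 to 0.594). Interiors over all other peaks, the odds ratio of pemetrexed over cisplatin was 0.807 in KO cells (0.721 to 0.903) and 0.651 in WT cells (0.511 to 0.824). In KO cells the ratio was 0.863 (0.772 to 0.964) without the 5 windows of 1 Mb that held the most members, and 0.437 with peaks within 100 kb joined. Smaller sets did not all lie above these interiors. In the interiors of chromosomes 5, 6, 8 and 10 the KO ratio was 0.501 (0.432 to 0.579) and the WT ratio 0.684 (0.560 to 0.834). At the ends of chromosomes 7, 9, 11 and 12 the KO ratio was 1.92 (1.54 to 2.41) and the WT ratio 0.367 (0.214 to 0.607).

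The KO excess after pemetrexed was present on each of the 4 chromosomes. On chromosome 12 the lists held 183 KO and 25 WT pemetrexed peaks, a ratio of 7.32 (95% interval 4.80 to 11.6), and on chromosome 11 they held 210 and 29, a ratio of 7.24 (4.90 to 11.1). On chromosome 9 they held 137 KO and 22 WT peaks, a ratio of 6.23 (3.95 to 10.3), and on chromosome 7 they held 190 and 36, a ratio of 5.28 (3.68 to 7.76). These 4 intervals overlap, so the order of the chromosomes is not resolved. The cisplatin ratio lay between 2.09 on chromosome 7 (1.59 to 2.77) and 2.70 on chromosome 9 (2.02 to 3.66), and its intervals overlap as well. Counting single peaks, the pemetrexed ratio exceeded the cisplatin ratio on every one of the 4. The factor was 2.52 on chromosome 7 (1.58 to 4.07), 2.30 on chromosome 9 (1.32 to 4.13), 2.99 on chromosome 11 (1.86 to 4.92) and 3.16 on chromosome 12 (1.90 to 5.40). This was not so everywhere with peaks within 100 kb joined into runs, for which no intervals were computed. Chromosome 9 then had the lower ratio after pemetrexed, with 37 KO and 21 WT runs, against 115 and 56 after cisplatin. On chromosome 7 the ratios were close (57 and 35, against 106 and 66). They kept their order on chromosomes 11 (55 and 28, against 142 and 77) and 12 (60 and 24, against 115 and 62).

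**Figure D1:**
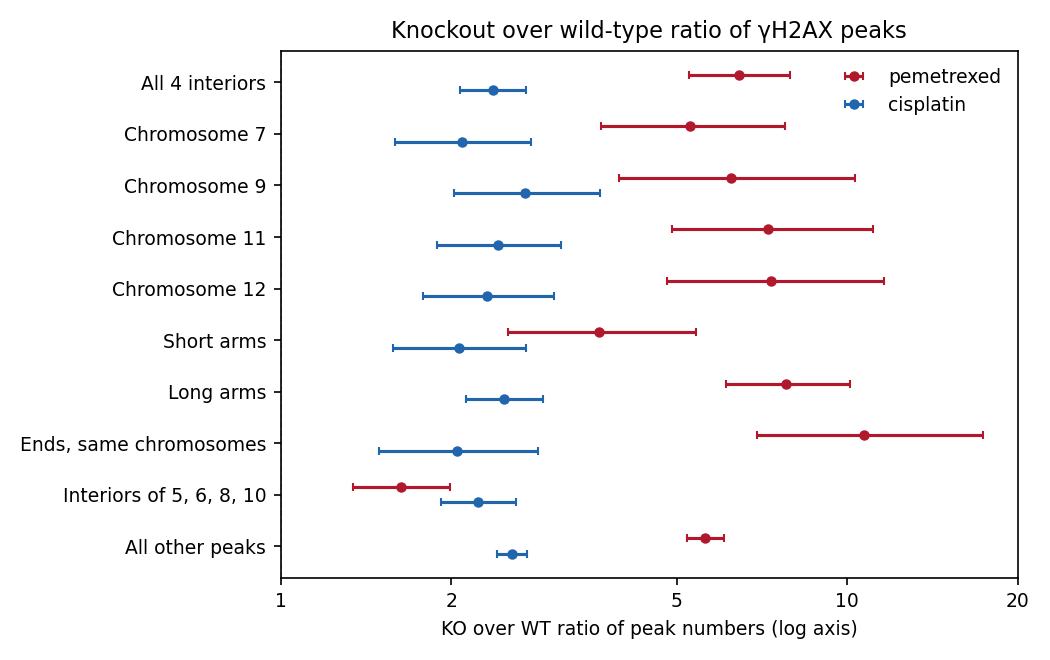
Number of KO peaks divided by number of WT peaks (x axis, log) after pemetrexed and cisplatin, with exact 95% intervals that cover counting error only, for the 4 interiors together, each chromosome, each kind of arm, and 3 sets outside them. Pemetrexed ratios lie to the right of cisplatin ratios in every row except the interiors of chromosomes 5, 6, 8 and 10, where they are 1.63 and 2.23.

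Counting single peaks, the pemetrexed ratio of these interiors was higher than that of the interiors of chromosomes 5, 6, 8 and 10. Its difference from the rest of the series depended on how nearby peaks were counted. Set against all other peaks, the odds of a KO peak lying in the interiors were 1.15 times those of a WT peak after pemetrexed (95% interval 0.924 to 1.43) and 0.923 times after cisplatin (0.798 to 1.07), and both intervals include 1. With peaks within 10 kb joined the pemetrexed value was 1.29 (1.04 to 1.62), and with peaks within 100 kb joined 1.45 (1.12 to 1.88), intervals that leave out 1. The interiors of chromosomes 5, 6, 8 and 10, cut in the same way, held 279 KO and 171 WT pemetrexed peaks, a ratio of 1.63 (1.34 to 1.99). The pemetrexed ratio of the studied interiors was 3.94 times as high as theirs (2.96 to 5.24). This factor was not computed with peaks joined. A neighbour within 100 kb was found for 86.5% of the studied KO pemetrexed peaks and for 68.5% of theirs. The part of this in the factor was not tested. Both lists took part in the contrast between the sets of interiors. Of all KO pemetrexed peaks, 13.6% lay in the interiors of chromosomes 7, 9, 11 and 12 and 5.29% in those of chromosomes 5, 6, 8 and 10, while the WT pemetrexed shares were 12.1% and 18.5%. After cisplatin the 2 sets of interiors had ratios of 2.37 and 2.23, and the odds ratio between them was 1.06 (0.866 to 1.30).

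Within the same 4 chromosomes, counting single peaks, the KO over WT ratio after pemetrexed was higher at the ends. Beside the centromeres a KO excess was not resolved. The end 5 Mb of the arms held 236 KO and 22 WT pemetrexed peaks, a ratio of 10.7 (95% interval 6.92 to 17.4), and the interiors had 0.600 times that ratio (0.353 to 0.980). Of the KO pemetrexed peaks at the ends, 60.2% lay within 10 kb of another of their list (43.6% in the interiors). The stretches beside the centromeres held 6 KO and 11 WT pemetrexed peaks, a ratio of 0.545 (0.166 to 1.61), and the ratio of the interiors was 11.7 times as high (3.88 to 39.4). The first of these intervals includes 1. Of the 11 WT peaks, 5 lay within 10 kb of another of their list (45.5%, against 0% in the interiors). Neither factor was computed with peaks joined. After cisplatin the stretches beside the centromeres held 23 KO and 4 WT peaks, a ratio of 5.75 (2.0 to 22.9), and 0.412 was the factor to the interiors (0.103 to 1.22).

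The long arms carried most of the KO pemetrexed peaks. After pemetrexed the long arms held 585 KO and 75 WT peaks, a ratio of 7.80 (95% interval 6.12 to 10.1), and the short arms held 135 KO and 37 WT peaks, a ratio of 3.65 (2.52 to 5.40). The ratio was thus 2.14 times as high on the long arms (1.34 to 3.36). After cisplatin the ratios were 2.48 on the long arms (2.12 to 2.90) and 2.06 on the short arms (1.58 to 2.71), and the factor between arms was 1.20 (0.875 to 1.64). The interval of the pemetrexed factor reached 1 without chromosome 12, where the factor was 1.63 (0.956 to 2.73), and with peaks within 100 kb joined, where it was 1.74 (1.0 to 3.03). The arms were compared after the counts had been seen.

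The KO pemetrexed list was the most uneven between all long and all short arms. Per Mb, the KO pemetrexed list held 1.89 peaks on the long arms and 0.888 on the short arms, and the WT pemetrexed list held 0.243 on both. The equal WT pemetrexed values join arms that differed in opposite directions, with 0.314 per Mb on the long and 0.160 on the short arm of chromosome 7, against 0.182 and 0.346 on those of chromosome 12. The KO cisplatin list held 1.87 and 1.12 per Mb on long and short arms, and the WT cisplatin list 0.753 and 0.546.

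Single arms differed. The long arm of chromosome 12 had 169 KO and 16 WT pemetrexed peaks, a ratio of 10.6 (95% interval 6.32 to 18.9), while its short arm had 14 and 9, a ratio of 1.56 (0.627 to 4.07) that includes 1. Chromosome 12 thus held both the highest and the lowest pemetrexed ratio of the 8 arms. The long arm of chromosome 9 had 104 KO and 11 WT peaks (9.45, 5.07 to 19.5) and its short arm 33 and 11 (3.0, 1.48 to 6.58). On chromosome 7 the arms were alike in ratio, with 147 KO and 28 WT peaks on the long arm (5.25, 3.49 to 8.17) and 43 and 8 on the short arm (5.38, 2.50 to 13.2). On chromosome 11 the long arm had 165 KO and 20 WT peaks (8.25, 5.17 to 13.9) and the short arm 45 and 9 (5.00, 2.41 to 11.6).

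Between the drugs in KO cells, the long arms of chromosomes 7 and 9 went opposite ways when single peaks were counted. The long arm of chromosome 7 held 147 pemetrexed and 110 cisplatin peaks, a ratio of 1.34 (95% interval 1.04 to 1.73). The long arm of chromosome 9 held 104 pemetrexed and 143 cisplatin peaks, a ratio of 0.727 (0.559 to 0.943). The long arms of chromosomes 11 and 12 had ratios of 1.04 (0.830 to 1.30) and 1.02 (0.822 to 1.28). Joined counts were not made by arm. Over both arms, with peaks within 100 kb joined into runs, chromosomes 7 and 9 went the same way. Chromosome 7 held 57 KO pemetrexed and 106 KO cisplatin runs, and chromosome 9 held 37 and 115.

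**Figure D2:**
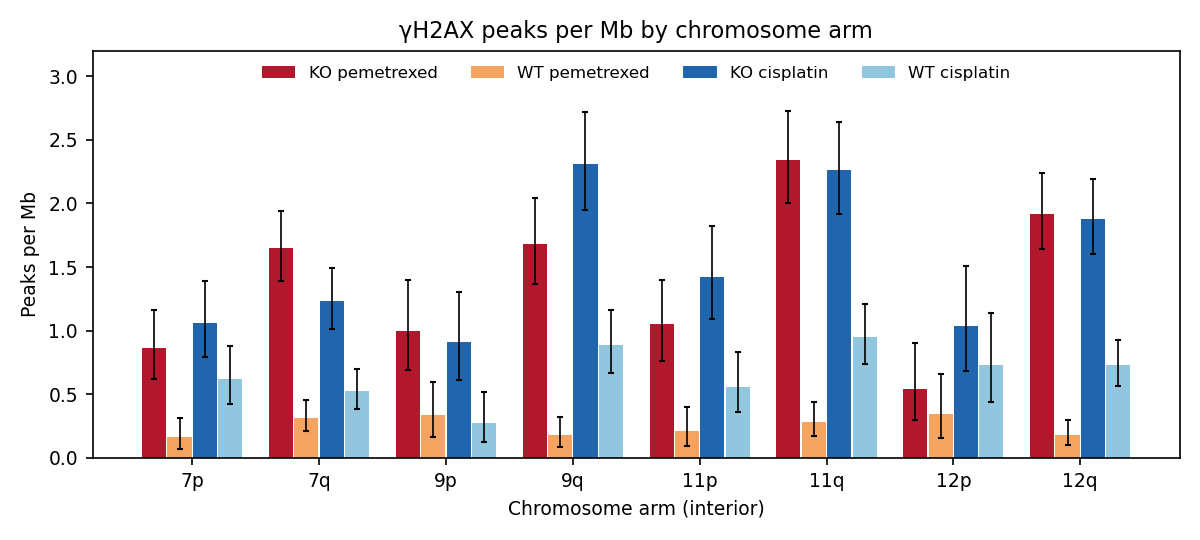
Peaks per Mb in the interior of each arm (p short, q long) for the 4 lists, with exact Poisson 95% intervals that cover counting error only. KO pemetrexed bars range from 0.538 per Mb on the short arm of chromosome 12 to 2.34 on the long arm of chromosome 11, and WT pemetrexed bars from 0.160 to 0.346.

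Peak density changed with the distance from the nearer chromosome end, and not in a single direction. The KO pemetrexed list held 2.91 peaks per Mb at 5 to 15 Mb from the end, 0.783 at 15 to 30 Mb, 0.448 at 30 to 45 Mb and 2.21 beyond 45 Mb. The WT pemetrexed list held 0.362, 0.250, 0.171 and 0.224 per Mb over the same distances. The KO over WT ratio after pemetrexed was accordingly high at the outer and innermost distances, 8.03 at 5 to 15 Mb (95% interval 5.45 to 12.3) and 9.89 beyond 45 Mb (6.97 to 14.4), and lower between them, 3.13 at 15 to 30 Mb (2.06 to 4.90) and 2.61 at 30 to 45 Mb (1.49 to 4.78). After cisplatin the ratio was 2.05, 2.09, 2.73 and 2.66 over the same distances, with overlapping intervals. At 30 to 45 Mb the pemetrexed ratio divided by the cisplatin ratio was 0.958 (0.479 to 1.97). All of these values by distance count single peaks, and none was computed with peaks joined. Over all the interiors, joining peaks within 100 kb took the pemetrexed ratio from 6.43 to 1.94.

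KO pemetrexed peaks were the widest of the 4 lists and WT pemetrexed peaks the narrowest. The median width was 1064 bp in the KO pemetrexed list (interquartile range 876 to 1614) and 582 bp in the WT pemetrexed list (550 to 637). It was 810 bp in the KO cisplatin list (691 to 950) and 634 bp in the WT cisplatin list (579 to 733). Together the KO pemetrexed peaks covered 1005 kb and the WT pemetrexed peaks 67.1 kb, a ratio of 15, made of 6.43 times as many peaks and a mean width 2.33 times as large. The KO cisplatin peaks covered 644 kb and the WT cisplatin peaks 214 kb, a ratio of 3.02.

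In these interiors, peaks of 2 kb or more were found in the KO lists alone. Among KO pemetrexed peaks there were 109 of 720 (15.1%, exact binomial 95% limits 12.6 and 18.0%), and there were 7 of 748 in the KO cisplatin list (0.936%, 0.377 to 1.92%). There were 0 of 112 in the WT pemetrexed list, where 3 counts would be a share of 2.68%, and 0 of 316 in the WT cisplatin list, where 3 counts would be 0.949%. The upper 95% limits of these WT shares were 3.24% for pemetrexed and 1.16% for cisplatin. Neither WT list is thus long enough to exclude a share as low as that of the KO cisplatin list. Over the whole series the shares were 22.6% for KO pemetrexed (21.5 to 23.8%) and 0.985% for KO cisplatin (0.719 to 1.32%), so the KO pemetrexed share of the interiors was the lower. The whole WT cisplatin list held 1 such peak of 1807 (0.0553%), and the whole WT pemetrexed list 0 of 924. Among KO pemetrexed peaks the share of 2 kb or more was 10.5% on chromosome 7 (6.55 to 15.8%), 15.7% on chromosome 11 (11.1 to 21.4%), 15.8% on chromosome 12 (10.9 to 22.0%) and 19.7% on chromosome 9 (13.4 to 27.4%). All 4 lay below the 42.8% at the ends of the same chromosomes (36.4 to 49.4%), and the interiors of chromosomes 5, 6, 8 and 10 had 9.32% (6.18 to 13.4%).

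The 3 widest KO pemetrexed peaks lay on 3 long arms. The widest spanned 8862 bp on chromosome 12 (121890206 to 121899068), in a window of 1 Mb with 11 KO pemetrexed members, and no other list met it. The next spanned 7396 bp on chromosome 9 (129672196 to 129679592) and was met by peaks of both cisplatin lists. The third spanned 6344 bp on chromosome 11 (67958554 to 67964898), lay 0.208 kb from its nearest KO pemetrexed neighbour, and was met by a KO cisplatin peak. The widest on chromosome 7 was smaller, 3724 bp (73427898 to 73431622).

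The widest peaks of the other lists were shorter. Chromosome 11 held the widest WT pemetrexed peak, of 956 bp (8677867 to 8678823), followed by 943 bp on chromosome 7 (149159061 to 149160004) and 847 bp at 16465665 to 16466512 of chromosome 9, each at least 487 kb from the next peak of its list. The 3 widest KO cisplatin peaks were all on chromosome 7, at 2786 bp (100387289 to 100390075), 2611 bp (75434943 to 75437554) and 2145 bp (6040627 to 6042772). The first pair of these lay 4.24 and 1.73 kb from their neighbours, and the last lay 112 kb away. Chromosome 9 held WT cisplatin peaks of 1485 bp (91467159 to 91468644) and 1444 bp (130184036 to 130185480), and chromosome 11 held 1 of 1461 bp (64941126 to 64942587). None of these 9 peaks was met by a peak of another list.

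KO pemetrexed peaks stood closest together. The median distance to the nearest peak of the same list was 13.3 kb in the KO pemetrexed list and 1249 kb in the WT pemetrexed list, and 72.5 kb in the KO cisplatin list and 234 kb in the WT cisplatin list. A neighbour within 100 kb was found for 86.5% of the KO pemetrexed list (exact binomial 95% limits 83.8 and 88.9%), against 7.14% for WT pemetrexed (3.13 and 13.6%). The shares were 53.9% for KO cisplatin (50.2 to 57.5%) and 29.7% for WT cisplatin (24.8 to 35.1%). The whole series had similar shares, 88.4% for KO pemetrexed, 12.6% for WT pemetrexed, 57.1% for KO cisplatin and 30.0% for WT cisplatin, so the order is not particular to these interiors. Within 10 kb the share was 43.6% for KO pemetrexed (40.0 to 47.3%) and 15.2% for KO cisplatin (12.7 to 18.0%). List length differs between the genotypes, and its part in these shares was not tested.

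Width and closeness went together in the KO pemetrexed list. Its peaks with a neighbour within 10 kb had a median width of 1172 bp, those with the nearest neighbour at 10 to 100 kb 1048 bp, and those with none within 100 kb 929 bp. The share of 2 kb or more was 22.3% (95% exact binomial interval 17.8 to 27.3%), 10.7% (7.47 to 14.7%) and 6.19% (2.30 to 13.0%) in the same order. Even the 97 solitary KO pemetrexed peaks had a larger median than the 104 solitary WT pemetrexed peaks, which had 584 bp. In the KO cisplatin list the medians were 853, 826 and 773 bp by the same distances.

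**Figure D3:**
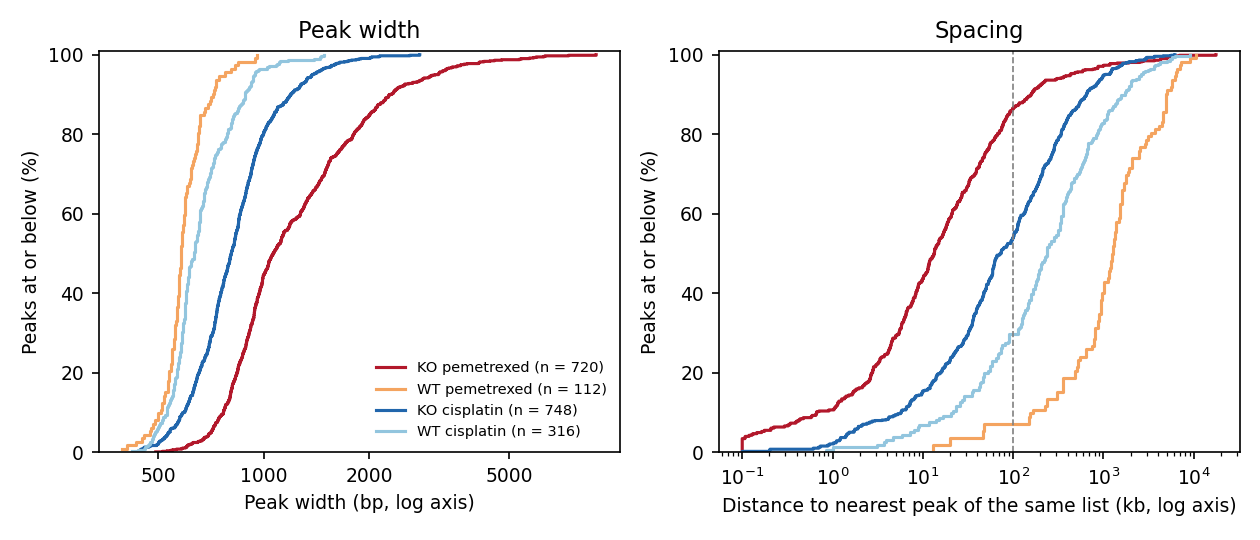
Cumulative share of peaks by width (left, bp, log axis) and by distance to the nearest peak of the same list (right, kb, log axis, distances under 0.1 kb drawn at 0.1) for the 4 lists. In both panels the KO pemetrexed curve stands apart at the wide and close side, with medians of 1064 bp and 13.3 kb; the dashed line marks 100 kb.

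When peaks within 100 kb were joined, the 720 KO pemetrexed peaks fell into 209 runs and the 112 WT pemetrexed peaks into 108. Runs of 5 or more peaks numbered 44 in the KO pemetrexed list and held 444 peaks (61.7%, 95% exact binomial interval 58 to 65.2%), and there were 0 such runs in the WT pemetrexed list. The KO cisplatin list had 22 such runs with 132 peaks (17.6%, 15 to 20.6%), and the WT cisplatin list 2 with 11 peaks. Most KO pemetrexed members were thus part of a run, while nearly every WT pemetrexed member stood by itself. The lists differ in length, and the part of this in the runs was not tested. Runs were not counted over the whole series, where 88.4% of KO pemetrexed and 12.6% of WT pemetrexed peaks had a neighbour within 100 kb.

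The KO pemetrexed run with the most peaks lay on the long arm of chromosome 9 (133072335 to 133478794), with 27 peaks over 406 kb. It also held 0 WT pemetrexed, 2 KO cisplatin and 2 WT cisplatin peaks, and the KO pemetrexed peaks covered 10.6% of its length. On chromosome 11 the run with the most peaks (64653549 to 65120323) held 26 KO pemetrexed, 0 WT pemetrexed, 5 KO cisplatin and 2 WT cisplatin peaks over 467 kb. On chromosome 12 (123565706 to 123876876) it held 21, 0, 2 and 5 peaks in the same order over 311 kb, and its KO pemetrexed peaks covered 15.4% of the length. On chromosome 7 (73122630 to 73487191) it held 18, 0, 4 and 0 over 365 kb. None of these 4 runs, which were picked by their KO pemetrexed count, held a WT pemetrexed peak. With 0.243 WT pemetrexed peaks per Mb over the interiors, stretches this short can hold none without differing from the rest.

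Windows of 1 Mb show how far each list was gathered. The interiors span 461 Mb in 463 windows, and 121 of them held a KO pemetrexed peak (26.1%) and 97 a WT pemetrexed peak (21.0%). KO cisplatin peaks reached 254 windows (54.9%) and WT cisplatin peaks 170 (36.7%). Over the whole series the occupied shares were 23.7% (KO pemetrexed), 24.4% (WT pemetrexed), 51.1% (KO cisplatin) and 33.4% (WT cisplatin). The KO pemetrexed list, with 6.43 times as many peaks as its WT counterpart, thus occupied a similar number of windows, and fewer than the KO cisplatin list of similar length. The windows with the most peaks needed to hold 50% of a list numbered 20 for KO pemetrexed, 41 for WT pemetrexed, 52 for KO cisplatin and 45 for WT cisplatin. For WT pemetrexed this number is limited by its 112 peaks. For KO pemetrexed it was 4.32% of the interior windows, against 2.74% of windows in the whole series. The gathering of KO pemetrexed peaks is thus not particular to these interiors. There were 148 windows with no peak of any list and 24 with peaks of all 4.

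**Figure D4:**
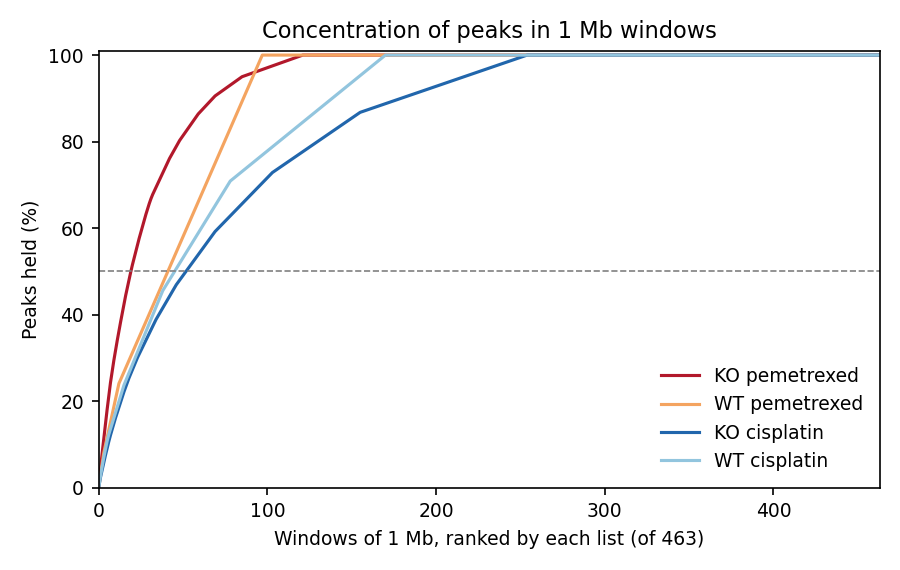
Share of each list's peaks (y axis, percent) held by its most occupied windows of 1 Mb, ranked within each list (x axis, number of windows of 463). The dashed line marks 50%, which the KO pemetrexed curve reaches at 20 windows and the KO cisplatin curve at 52.

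The 4 windows with the most members over the lists were on the long arms of chromosomes 9 and 11, and the fifth place was a tie at 35 peaks between chromosomes 11 and 7. The window with the most (chromosome 9, 129000001 to 130000000) held 27 KO pemetrexed, 0 WT pemetrexed, 17 KO cisplatin and 6 WT cisplatin peaks. On chromosome 11, 64000001 to 65000000 held 25, 0, 13 and 4 in the same order, 66000001 to 67000000 held 25, 0, 9 and 2, and 65000001 to 66000000 held 17, 0, 13 and 5. No WT pemetrexed peak lay in these 3 neighbouring windows, while the windows on either side, 63000001 to 64000000 and 67000001 to 68000000, held 3 and 1. With 0.243 WT pemetrexed peaks per Mb over the interiors, 3 windows can hold none without differing from the rest. The other window on chromosome 9 (133000001 to 134000000) held 29, 1, 4 and 4. The tied window on chromosome 7 (75000001 to 76000000) held 23, 0, 9 and 3. Counting the chromosome 11 window at the tie, 5 windows together held 17.1% of the KO pemetrexed members, 0.893% of the WT pemetrexed members (1 peak), 7.49% of the KO cisplatin members and 6.65% of the WT cisplatin members.

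The balance of the lists varied among other windows. On chromosome 7, 73000001 to 74000000 held 24 KO pemetrexed, 0 WT pemetrexed, 5 KO cisplatin and 0 WT cisplatin peaks. On chromosome 11, 68000001 to 69000000 held 6, 0, 7 and 8 in the same order, the highest WT cisplatin count of any interior window. The highest WT pemetrexed count was 3, reached in 3 windows. One of these (chromosome 11, 63000001 to 64000000) also held 15 KO pemetrexed peaks, and another (chromosome 12, 22000001 to 23000000) held no peak of any other list.

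**Figure D5:**
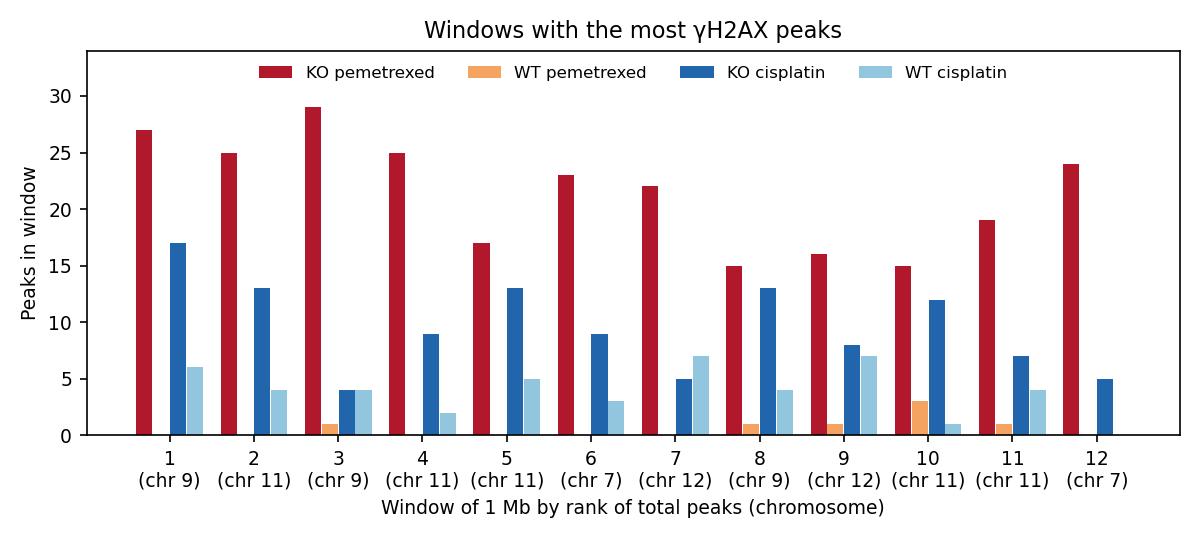
Number of peaks of each list in the 12 windows of 1 Mb with the most members over the 4 lists, ranked by that total and labelled by chromosome. KO pemetrexed counts run from 15 to 29 and WT pemetrexed counts from 0 to 3.

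The KO excess after pemetrexed was not present in every window. Of 179 interior windows with a pemetrexed peak of either genotype, 112 held more KO than WT peaks (62.6%), where the whole series had 54.0%, and 60 held fewer (33.5%), where the whole series had 40.7%. Of the WT pemetrexed peaks, 63 of 112 (56.2%) lay in windows with no KO pemetrexed peak. After cisplatin, 204 of 288 windows held more KO than WT peaks (70.8%; 70.4% in the whole series) and 51 held fewer (17.7%; 17.0%), and 42 of the 316 WT peaks (13.3%) lay in windows with no KO peak. The cisplatin shares of windows with more or fewer KO peaks were near those of the series. The shares of WT peaks in windows with no KO peak, 56.2% and 13.3%, have no whole-series value beside them. KO pemetrexed peaks occupied 26.1% of the interior windows and KO cisplatin peaks 54.9%, and the part of this in those shares was not tested. Between drugs in KO cells, 63 of 267 windows held more pemetrexed than cisplatin peaks (23.6%; 23.5% in the whole series) and 192 held fewer (71.9%; 69.7%). In WT cells 55 of 223 held more (24.7%; 31.3%) and 147 fewer (65.9%; 57.5%).

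Some long stretches were free of KO pemetrexed peaks and yet held peaks of other lists. The longest ran for 20.8 Mb on the long arm of chromosome 7 (76985553 to 97774799) and held 7 WT pemetrexed, 10 KO cisplatin and 4 WT cisplatin peaks. The longest stretch without a WT pemetrexed peak ran for 27.0 Mb on the long arm of chromosome 12 (61533227 to 88554379) and held 1 KO pemetrexed, 13 KO cisplatin and 3 WT cisplatin peaks. Within it lay the longest stretch without a KO cisplatin peak, 9.34 Mb (78263334 to 87602029), where no list had a peak.

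Over the 463 windows, counts of the KO pemetrexed list went with those of both cisplatin lists more than with those of the WT pemetrexed list. Spearman's rho was 0.570 between KO pemetrexed and KO cisplatin, 0.493 between KO pemetrexed and WT cisplatin, and 0.522 between KO cisplatin and WT cisplatin. It was 0.185 between KO pemetrexed and WT pemetrexed, 0.111 between WT pemetrexed and WT cisplatin, and 0.194 between WT pemetrexed and KO cisplatin. Over the 2992 windows of the whole series, the pairs without WT pemetrexed had 0.572, 0.525 and 0.487 in the order given. The pairs with WT pemetrexed had 0.188, 0.160 and 0.247 there, so the pattern is not particular to these interiors. The windows share libraries and neighbours and may share mappability and base composition, and the low values all involve the list with the fewest peaks, so these values are a description.

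At the scale of single peaks the lists seldom met. Lists were intersected at a minimum of 1 bp. After pemetrexed, 1 of 720 KO peaks (0.139%; 0.247% in the whole series) met 1 of 112 WT peaks (0.893%; 1.42%). The meeting was on the long arm of chromosome 7, where a KO peak of 1469 bp (151787761 to 151789230) enclosed a WT peak of 581 bp (151788333 to 151788914). After cisplatin, 3 of 748 KO peaks (0.401%; 0.701%) met 3 of 316 WT peaks (0.949%; 1.77%), on chromosome 9 and on both arms of chromosome 12. No WT pemetrexed member met a WT cisplatin peak, 0 of 112 (1.09% in the whole series), where 3 counts would be 2.68%. In turn 0 of 316 WT cisplatin members met a WT pemetrexed peak (0.554% in the whole series), where 3 counts would be 0.949%. These shares were below those of the series, yet for none of the pairs with a meeting did the odds ratio of interiors over other peaks have an interval that left out 1.

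The KO lists shared the most sites. Of the KO pemetrexed members, 54 met a KO cisplatin peak (7.5%, 95% exact binomial interval 5.68 to 9.67%; 6.24% in the whole series), and 55 KO cisplatin members met a KO pemetrexed peak (7.35%, 5.59 to 9.46%; 7.32%). Both shares are near the background of the series. The 54 were distributed as 22 on chromosome 12, 16 on chromosome 11, 10 on chromosome 9 and 6 on chromosome 7. They had a median width of 1580 bp (interquartile range 994 to 2232), and the 666 other KO pemetrexed members 1047 bp (865 to 1535). The 55 KO cisplatin members had a median of 904 bp, and the 693 others 803 bp. Wider peaks meet others more readily by length alone, and the part of this was not tested. Of the 55, 80.0% lay within 100 kb of another KO cisplatin peak (67.0 to 89.6%), against 51.8% of the others (48 to 55.6%). Of the 54, 83.3% lay within 100 kb of another KO pemetrexed peak (70.7 to 92.1%), against 86.8% of the others (84.0 to 89.3%), so the KO pemetrexed list showed no such difference beyond its intervals.

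KO pemetrexed peaks were met by 7 of 316 WT cisplatin members (2.22%, 95% exact binomial interval 0.895 to 4.51%; 3.99% in the whole series), which were 7 of 720 KO members (0.972%; 1.37%). A KO peak of 1790 to 7396 bp enclosed the whole WT peak at all of these places but 1, the site at 5452712 of chromosome 7, where the overlap was 323 bp. They lay on chromosome 11 (66062971 to 66063857 and 66071922 to 66072479), chromosome 12 (110575792 to 110576428), chromosome 7 (5452712 to 5453390 and 99999054 to 99999697) and chromosome 9 (129677575 to 129678401 and 133212774 to 133213389). KO cisplatin and WT pemetrexed met at 1 place (0.893% of WT members; 1.20%, and 0.134% of KO members; 0.241%), on the short arm of chromosome 7 (49448144 to 49448795).

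The interiors held 1830 separate regions over the lists, of which 1766 were covered by 1 list, 63 by 2, 1 by 3 and 0 by all 4. Regions were not counted in this way over the whole series, so these numbers are a description and do not set the interiors apart. The single region of 3 lists spans 7407 bp on the long arm of chromosome 9 (129672196 to 129679603), inside the window with the most peaks. A KO pemetrexed peak of 7396 bp (129672196 to 129679592) fills nearly all of it. A KO cisplatin peak of 1492 bp (129678111 to 129679603) and a WT cisplatin peak of 826 bp (129677575 to 129678401) overlap each other by 290 bp at its far end. No WT pemetrexed peak lay in the same window of 1 Mb, and over the interiors that list held 0.243 peaks per Mb.

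Lying within 100 kb of a peak of another list takes in every meeting, so its counts cannot be lower. The shares below have no whole-series value beside them and are a description. The median distance from a WT pemetrexed member to the nearest KO pemetrexed peak was 796 kb, and 22 of 112 lay within 100 kb (19.6%, 95% exact binomial interval 12.7 to 28.2%). To the nearest KO cisplatin peak the median was 233 kb, and 36 of 112 lay within 100 kb (32.1%, 23.6 to 41.6%). The intervals of these shares overlap. The KO pemetrexed peaks also lay in fewer places, 121 windows of 1 Mb against 254 for KO cisplatin, and the part of this in the distances was not tested. From a WT cisplatin member the nearest KO cisplatin peak lay at a median of 80.5 kb, with 53.8% within 100 kb (48.1 to 59.4%), and the nearest KO pemetrexed peak at 221 kb, with 39.2% within 100 kb (33.8 to 44.9%).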

How the data were processed

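Peak lists of γH2AX ChIP-seq from 4 drug-treated DLD1 libraries were used, 1 per group, grouped by sample title. The submitters' processing notes name MACS 1.4 and Bowtie (version not stated) as tools and hg18 as build, and give no role or order. Which control library, threshold and filters were used is not known. The deposited files hold chromosome, start and end alone, so depth and peak strength are unknown. Whether starts count from 0 or 1 is not stated, so a start may be off by 1 bp. No list held duplicated or overlapping peaks (0 of each).

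Ratios of peak numbers have exact (Clopper-Pearson) intervals, ratios of ratios and odds ratios are conditional with exact intervals, all at 95%, from SciPy 1.17.1 under Python 3.11.15. Functions were tested on simulated data. No p-value was computed, since each group has 1 library. Distances run edge to edge within a list, and windows of 1 Mb count from base 1. Overlaps, distances and windows used placed chromosomes alone. For the interiors of chromosomes 5, 6, 8 and 10 the stretches left out were 45 to 51, 58 to 64, 42 to 49 and 38 to 43 Mb.

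Regions were named by rule: the 3 widest members per list, the 5 fullest windows, the fullest KO pemetrexed run per chromosome and regions of 3 or more lists. Other windows, stretches, single arms and meeting sites were named after their values were seen. The set and its comparisons were chosen with earlier results of these data known. Alternatives were joining peaks, a margin of 10 Mb, peak width, other overlap limits, windows of 500 kb, and leaving out each chromosome or the 5 fullest windows. No sequence is printed, as no hg18 genome was at hand.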

Additional observations from a re-analysis of the deposited data

Results flagged for a closer look

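The excess of KO peaks was 2.71 times as large after pemetrexed as after cisplatin (95% exact interval 2.13 to 3.48), from 720 KO and 112 WT peaks after pemetrexed and 748 KO and 316 WT peaks after cisplatin. Genotype and library cannot be told apart here, since each genotype and drug has 1 library.

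After pemetrexed that ratio was 2.14 times as high on the long as on the short arms (95% exact interval 1.34 to 3.36). After cisplatin the factor was 1.20 (0.875 to 1.64), and pemetrexed over cisplatin it was 1.78 (95% Wald interval 1.05 to 3.02). By chromosome, the pemetrexed factor was 6.69 on chromosome 12 (2.20 to 19.9), 3.12 on chromosome 9 (1.12 to 8.78), 1.65 on chromosome 11 (0.616 to 4.10) and 0.977 on chromosome 7 (0.358 to 2.41).

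Outside the compared regions, unplaced contigs of chromosome 9 held 0 KO pemetrexed, 5 WT pemetrexed, 3 KO cisplatin and 0 WT cisplatin peaks. A count above 3 was the mark for listing it, which tests no difference between lists.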

How the results depend on the processing

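Of 111 alternative values for 25 results, 81 stayed within the interval of the reported value (for meetings and windows, within 1.5 times; for covered bases, within the relative interval of the peak numbers), 30 moved, and 0 of the values whose interval left out 1 crossed to the other side of 1. Values whose interval included 1 did cross it. After pemetrexed, the odds ratio (KO over WT) of lying in the interiors, 1.15 as reported, was 0.958 without the 5 fullest windows, and pemetrexed over cisplatin in KO, 0.963 as reported, was 1.01 without chromosome 9 and 1.06 for peaks of at least 600 bp. Alternatives for the arms were chosen after seeing the data. No paired analysis was possible because the groups hold 1 library each. With peaks within 10 kb joined, KO over WT after pemetrexed was 4.70, pemetrexed over cisplatin in KO 0.767, the ratio of ratios 2.09, the KO over WT odds ratio of lying in the interiors after pemetrexed 1.29 (95% interval 1.04 to 1.62), and the shares within 100 kb 79.7% (KO pemetrexed) and 48% (KO cisplatin). With peaks within 100 kb joined, KO over WT was 1.94 after pemetrexed and 1.83 after cisplatin, pemetrexed over cisplatin in KO 0.437, the ratio of ratios 1.06, and the same odds ratio 1.45 (1.12 to 1.88), so that joining at either distance brought its interval above 1. Counting peaks from 600 bp upward, which by itself removes more of the narrower WT lists, KO over WT was 17.8 after pemetrexed and 3.39 after cisplatin, pemetrexed over cisplatin in WT 0.203, and the ratio of ratios 5.24. With peaks under 2 kb alone, covered bases KO over WT after pemetrexed were 10.1. Without the 5 fullest windows, pemetrexed over cisplatin in KO was 0.863 (0.772 to 0.964). At 1 Mb the shares near another peak were 97.2% (KO pemetrexed), 40.2% (WT pemetrexed), 94.8% (KO cisplatin) and 82.9% (WT cisplatin). Meetings at 50% reciprocal overlap numbered 0 for KO and WT pemetrexed, 25 for the KO lists, and 0 for KO pemetrexed and WT cisplatin. With a tolerance of 10 kb they numbered 5 for KO and WT pemetrexed, 30 for KO and WT cisplatin, 170 for the KO lists, 3 for the WT lists, 41 for KO pemetrexed and WT cisplatin, and 8 for KO cisplatin and WT pemetrexed. In windows of 500 kb, 83 held 50% of KO cisplatin peaks. Leaving out any of the 4 chromosomes, or a margin of 10 Mb, moved none of the ratios of peak numbers outside its reported interval, though with the margin of 10 Mb pemetrexed over cisplatin in KO was 0.889 (0.793 to 0.997). The cause of these moves was not tested. Read depth is unknown, so no limit of detection can be given.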
